A study of Mus musculus with 18 samples.

Results

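Gene expression was compared between CD103+CD11b+ and CD103-CD11b+ cells from the colon of mice given dextran sulfate sodium (DSS), with 3 arrays of each subset. These 6 arrays were chosen by their titles out of 18, and all 14003 genes that had a probe set with a single gene symbol and passed a filter on low values were tested. Both subsets came from the MHC+CD11chigh gate of colon lamina propria, and the cells were freed with collagenase from 8-week-old BALB/c mice. The DSS mice, of experiments 4 to 6, received 2% DSS. The matching untreated mice, of experiments 1 to 3, received none and gave the same subsets, with 3 arrays of each. The remaining arrays hold CD103+CD11b- cells of both conditions. Neither the length of DSS treatment nor the number of mice behind an array was given in the labels, so the spread behind each p-value is that of these samples and may be technical. Each experiment contributed 1 array of every subset, and no experiment held both conditions, so the experiment and the treatment cannot be told apart.

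CD103 is the integrin alpha E chain, which pairs with beta 7 and binds E-cadherin on epithelial cells. CD11b is the integrin alpha M chain of monocytes, macrophages and type 2 conventional dendritic cells (cDC2). In the intestine, CD103+CD11b+ cells are known mainly as migratory dendritic cells that depend on the growth factor receptor Flt3, whereas CD103-CD11b+ cells with MHC class II and CD11c are known as a mixture of dendritic cells and macrophages, the latter arising largely from Ly6C-high monocytes and depending on Csf1r. DSS injures the colon epithelium and draws monocytes into the tissue.

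The values are log2 expression from RMA, given below per array in the order of experiments 4, 5 and 6. Differences are CD103+CD11b+ minus CD103-CD11b+ on the log2 scale, with limma's standard error (SE). A gene is called at an adjusted p under 0.05 (Benjamini-Hochberg over all genes tested). Arrays within a subset correlated at 0.987 to 0.99 across genes, which are not independent replicates. On the first principal component of all 18 arrays, which held 29.9% of the variance, the CD103+CD11b+ arrays of DSS mice lay between 6.17 and 7.44 and the CD103-CD11b+ arrays between 14.8 and 20.0. The number of arrays limits the precision, and the median SE of a difference was 0.166. Transcripts of pancreatic digestive enzymes set some arrays apart. Over 16 such genes, listed after their values were seen, the mean log2 level was 6.22, 3.98 and 8.18 in the CD103+CD11b+ arrays and 3.98, 3.82 and 6.65 in the CD103-CD11b+ arrays. Both arrays of experiment 5 were thus low, both of experiment 6 were high, and in experiment 4 only the CD103+CD11b+ array was raised. All 16 genes were higher in CD103+CD11b+ cells, with differences of 0.63 to 1.83. None of them was called (lowest adjusted p = 0.77), but 4 were called with the experiment number as a block in the fit. Their part in the other results was not tested.

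The subsets differed in 221 genes, or 1.58% of those tested, of which 61 were higher (0.436%) and 160 lower (1.14%) in CD103+CD11b+ cells. The higher genes were led by Crisp3, Itgae and Rtn1 and included genes of dendritic cells and of cell junctions. The lower genes included the growth factor receptor Csf1r, the complement genes Cfb, C1qa, C1qb and C1qc, 4 Fc gamma receptor genes and many lysosomal and innate receptor genes. Called differences ran from 0.48 to 2.14 with a median of 0.86 among the higher genes and from -0.52 to -2.10 with a median of -0.97 among the lower genes. In 13 of the higher and 75 of the lower genes the difference exceeded 1 log2 unit. For all 221 genes the 3 values of one subset lay above the 3 of the other. This held for 16.5% of all genes tested (6.71% higher and 9.82% lower). From this separation it follows that the sign of the 221 genes was the same in each of the 3 experiments.

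The number of calls depended on single arrays. It was 116, 133 and 125 without CD103+CD11b+ replicate 4, 5 and 6, and 128, 203 and 97 without CD103-CD11b+ replicate 4, 5 and 6. The experiment numbers pair the arrays, and with the number as a replicate block the higher genes increased to 94 and all calls to 305, of which 217 were among the 221. Because the cells were sorted in bulk, fewer cells of a type and less RNA per cell cannot be told apart in any of these differences.

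**Figure D1:**
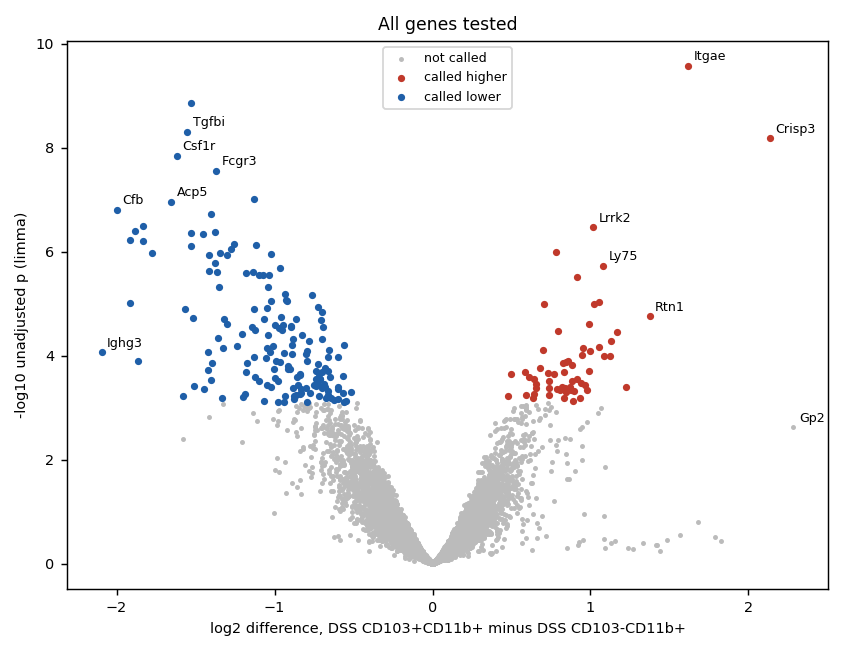
Log2 difference between DSS CD103+CD11b+ and DSS CD103-CD11b+ cells (horizontal) against the -log10 unadjusted p of limma's test (vertical) for the 14003 genes tested, with called higher genes in red and called lower genes in blue. Called lower genes (160) outnumber called higher genes (61), and Gp2 lies farthest to the right without a call.

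The sort markers came first. Itgae, which encodes CD103 and was part of the sort, read 8.85, 9.08 and 9.24 in CD103+CD11b+ cells and 7.32, 7.65 and 7.33 in CD103-CD11b+ cells. The groups did not overlap, and the difference of 1.62 ± 0.13 (3.07-fold) follows from the gate and is given as a description. Itgam, which encodes CD11b, read 7.10, 7.35 and 7.64 against 8.17, 7.74 and 8.13. Its values were lower in CD103+CD11b+ cells in each experiment, but the difference of -0.65 ± 0.20 was not called (adjusted p = 0.155). In CD103+CD11b- cells Itgam averaged 6.13. Itgax, which encodes CD11c, differed by -0.43 ± 0.16 (adjusted p = 0.296). Of the MHC class II genes, Cd74, the invariant chain, read 11.80 ± 0.04 (SD, n = 3) and 11.82 ± 0.08 (SD, n = 3), and H2-Aa 10.49 ± 0.03 (SD, n = 3) and 10.57 ± 0.14 (SD, n = 3). Both subsets thus carried the transcripts of their gate.

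Crisp3, a secreted cysteine-rich protein, had the largest called difference. It read 4.75, 4.79 and 5.4 in CD103+CD11b+ cells and 2.75, 3.05 and 2.72 in CD103-CD11b+ cells. All 3 values of the second subset lay below 3.51, the 40th percentile of all values that served as the filter level. The size of the difference, 2.14 ± 0.21 (adjusted p = 2.31e-05), is therefore uncertain. The mean in CD103+CD11b- cells of DSS mice, 3.18, also lay below that level. Crisp3 may thus have passed the filter only through the subset where it was high, and its call and rank are given as a description. Rtn1, a reticulon of the endoplasmic reticulum, read 7.48, 7.0 and 7.24 against 6.16, 6.22 and 5.21. The groups did not overlap, and CD103-CD11b+ replicate 6 was the lowest array, with a difference of 1.38 ± 0.24 (adjusted p = 0.00436). The promoters of these 2 genes are shown as those of the largest called differences with an entry in the RefSeq promoter table (GRCm38.p6, 250 bases before to 50 after the start). Crisp3 lies at chr17:40242239-40242538 and Rtn1 at chr12:72409005-72409304, both on the minus strand, and neither holds any of the 4 motifs described further on, so no letters are in capitals.
Crisp3: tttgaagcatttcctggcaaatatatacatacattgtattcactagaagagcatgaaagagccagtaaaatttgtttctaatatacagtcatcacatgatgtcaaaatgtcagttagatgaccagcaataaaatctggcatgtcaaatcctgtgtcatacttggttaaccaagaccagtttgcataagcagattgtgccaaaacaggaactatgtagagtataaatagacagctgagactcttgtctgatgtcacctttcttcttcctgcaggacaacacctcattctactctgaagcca
Rtn1: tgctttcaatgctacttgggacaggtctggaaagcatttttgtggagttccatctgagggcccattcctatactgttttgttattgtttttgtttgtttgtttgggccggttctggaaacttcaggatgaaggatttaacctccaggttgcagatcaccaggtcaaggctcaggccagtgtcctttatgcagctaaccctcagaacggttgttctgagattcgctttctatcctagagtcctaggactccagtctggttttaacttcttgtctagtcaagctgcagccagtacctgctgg

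Genes of dendritic cells were among those higher in CD103+CD11b+ cells. Ly75, the endocytic receptor DEC-205, read 9.18, 8.97 and 8.94 against 8.16, 8.11 and 7.58. Its groups did not overlap and differed by 1.08 ± 0.16 (adjusted p = 0.000873). Flt3, the receptor that drives dendritic cell development, read 7.50, 7.39 and 7.50 against 6.73, 6.65 and 6.70. The 2 groups were each tight and separate, with a difference of 0.77 ± 0.17 (adjusted p = 0.0231). Wdfy4, which is needed for cross-presentation of cell-associated antigen, differed by 0.70 ± 0.14, and the orphan receptor Gpr141b by 0.97 ± 0.22. These are 4 of 22 genes tested in the type 1 dendritic cell (cDC1) list, with Itgae, Ly75, Gpr141b and Wdfy4 higher and none lower, and 2 of 17 in the common dendritic cell list, Flt3 and Rtn1. The list medians were 0.24 and 0.15, against -0.02 over all genes tested, of which 0.436% were called higher. Some members went the other way. In the cDC1 list the groups did not overlap for 8 higher and 3 lower genes, with a lowest difference of -0.76. In the common list these were 6 and 3, with a lowest of -0.43. Over all genes tested 6.71% were separated higher and 9.82% lower. In the fit on only these groups with the replicate block, 1 cDC1 gene was called lower. Itgae belongs to the sort, and without it the cDC1 list had 3 of 21 genes higher with a median of 0.23. CD103+CD11b+ cells lay nearer to CD103-CD11b+ than to CD103+CD11b- cells on the cDC1 list: without Itgae, its mean level over the arrays was 6.35 to 6.59 in CD103+CD11b+, 6.18 to 6.32 in CD103-CD11b+ and 7.86 to 8.02 in CD103+CD11b- cells.

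Other defining genes of dendritic cells were not called. Clec9a, a receptor for dead cells, read 5.36 ± 0.33 (SD, n = 3) and 5.33 ± 0.31 (SD, n = 3), against 8.30 ± 0.12 (SD, n = 3) in CD103+CD11b- cells, and its difference of 0.03 ± 0.26 was not called (adjusted p = 0.996). The transcription factor Batf3 differed by 0.54 ± 0.17 (adjusted p = 0.154) and the dendritic cell factor Zbtb46 by 0.56 ± 0.15 (adjusted p = 0.0741), neither of them called. Xcr1, the chemokine receptor of cDC1, read 6.68, 7.14 and 7.31 against 5.93, 6.58 and 6.40. The groups were separate by a narrow margin, and experiment 4 gave the lowest value of both. Its difference of 0.74 ± 0.21 was not called (adjusted p = 0.0942) but was with the replicate block (adjusted p = 0.0382). The cDC1 count fell to 2 without CD103-CD11b+ replicate 6, and the common dendritic cell count to 1 without any one of the 6 arrays, Flt3 being the call that was lost (adjusted p of up to 0.0934). The Gpr141b call was lost without replicate 4 or 5 of CD103+CD11b+ or replicate 4 or 6 of CD103-CD11b+ cells (adjusted p of up to 0.178), and the Wdfy4 call without replicate 6 of either subset (up to 0.0777).

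The higher genes also included members of the junction and adhesion list. Cldn1, a claudin of tight junctions, read 9.95, 9.92 and 9.89 against 9.12, 8.84 and 8.29. The CD103+CD11b+ arrays were nearly equal and all above the others, with a difference of 1.17 ± 0.22 (adjusted p = 0.00648). Ctnnd2, a delta-catenin of adherens junctions, differed by 0.99 ± 0.18 and Adam23, a disintegrin without protease activity, by 1.08 ± 0.22. Itga4, the alpha 4 integrin chain that guides cells into the gut with beta 7, differed by 0.64 ± 0.14. The list had a median of -0.01, with these 4 of 22 genes higher and 2 lower, against 0.436% and 1.14% of all genes tested. The lower genes were Itgal, the alpha chain of LFA-1, at -0.84 ± 0.18 and the tetraspanin Cd81 at -0.80 ± 0.19. Cdh1, E-cadherin, differed by 0.29 ± 0.17 (adjusted p = 0.694) and the plakoglobin gene Jup by 0.11 ± 0.17 (adjusted p = 0.95). Off the list, the microtubule-associated Map9 differed by 1.13 ± 0.22, Map1b by 0.99 ± 0.20, the tyrosine phosphatase Ptpn3 by 1.13 ± 0.23 and Fgd3, an exchange factor for Cdc42, by 1.02 ± 0.17. For this list the higher count fell to 1 and the lower to 0 without CD103-CD11b+ replicate 6, where Cldn1 had an adjusted p of 0.0555. Without CD103+CD11b+ replicate 4 the counts were 2 and 0, without replicate 6 of that subset 2 and 1, and without CD103-CD11b+ replicate 4 the lower count was also 0. The Adam23 call was lost without CD103+CD11b+ replicate 4 or 6 or CD103-CD11b+ replicate 6 (adjusted p of up to 0.0993), and that of Map1b without CD103+CD11b+ replicate 4 or CD103-CD11b+ replicate 6 (0.0663). Map9 was lost without CD103+CD11b+ replicate 6 or CD103-CD11b+ replicate 4 (0.0593), and Ptpn3 without CD103+CD11b+ replicate 5 or 6 or CD103-CD11b+ replicate 4 or 6 (0.0608). Itgal was lost without replicate 4 of either subset, CD103+CD11b+ replicate 5 or CD103-CD11b+ replicate 6 (0.137), and Cd81 without any one array other than CD103+CD11b+ replicate 5 (0.197).

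Ccr6, the receptor of the chemokine Ccl20, read 6.53, 6.57 and 6.82 against 5.44, 5.74 and 5.58. The groups lay about 1 log2 unit apart with a difference of 1.05 ± 0.17 (adjusted p = 0.00276). Ccr6 was the only call among 15 chemokine receptor genes tested, against 1.58% of all genes tested. With the replicate block 2 were higher, Xcr1 having joined it, and Ccr2, the monocyte receptor, was lower (-0.78 ± 0.20, adjusted p = 0.0508 without the block and 0.044 with it). Ccr7, which guides mature dendritic cells to lymph nodes, read 11.02 ± 0.06 (SD, n = 3) and 10.87 ± 0.10 (SD, n = 3), and its difference of 0.15 ± 0.12 was not called (adjusted p = 0.819). Lrrk2, a large kinase linked to vesicle traffic, read 7.42, 7.39 and 7.29 against 6.28, 6.48 and 6.30. This probe set gave a difference of 1.02 ± 0.13 (adjusted p = 0.000389), whereas the other probe set of the gene gave 0.07 ± 0.19. For Ptpn3 the 12 probe sets ranged from 0.41 to 1.22. Among the 15 leading higher genes were also the serpin Serpinb1b at 1.22 ± 0.28 and Spata32 at 1.05 ± 0.21, of which the first lost its call without any one array other than CD103-CD11b+ replicate 6 (adjusted p of up to 0.158) and the second without replicate 6 of either subset or CD103-CD11b+ replicate 5 (0.0718).

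**Figure D2:**
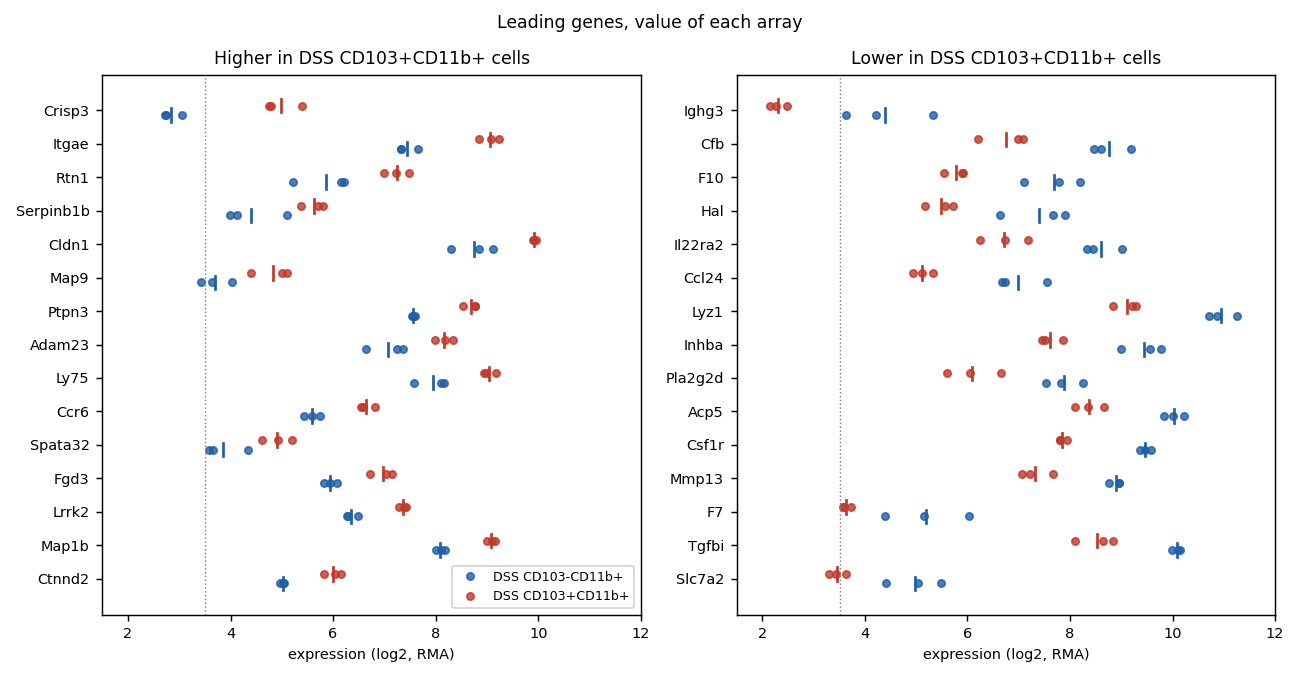
Log2 expression (horizontal, RMA) of the 15 leading higher and 15 leading lower genes in each DSS array, with red points for CD103+CD11b+ and blue points for CD103-CD11b+ arrays, short vertical bars for the means of 3 arrays and a dotted line at the filter level of 3.51. The 30 genes were picked among called genes whose 3 red points all lie on one side of the 3 blue points. The blue Crisp3 points and the red Ighg3 points lie left of the line.

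Growth factor receptors separated the subsets in both directions. Csf1r, the receptor on which macrophages depend, read 7.81, 7.81 and 7.94 in CD103+CD11b+ cells and 9.58, 9.37 and 9.46 in CD103-CD11b+ cells. Both groups were tight and lay far apart, with a difference of -1.62 ± 0.17 (adjusted p = 3.98e-05, 3.07-fold). Csf3r, the G-CSF receptor of granulocytes and monocytes, differed by -1.05 ± 0.22 and Met, the receptor of hepatocyte growth factor, by -0.99 ± 0.18. Csf2rb, the shared beta chain of the GM-CSF receptor, read 11.53 ± 0.06 (SD, n = 3) and 11.52 ± 0.03 (SD, n = 3), with a difference of 0.01 ± 0.11 that was not called (adjusted p = 0.999). Of 19 genes in this list 3 were lower and 1, Flt3, was higher, against 1.14% and 0.436% of all genes tested. The Csf3r call was lost without replicate 4 of either subset or replicate 6 of CD103-CD11b+ cells (adjusted p of up to 0.0918), and the higher count was 0 without any one array other than CD103-CD11b+ replicate 4.

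Complement and Fc receptor genes formed the list with the largest share of calls: 10 of 21 were lower and 0 higher, with a median of -0.65. Of all genes tested 1.14% were lower. All lists were chosen with earlier results of these data known, so their counts and ranks are a description and not a test. Cfb, factor B of the alternative pathway, read 6.20, 6.98 and 7.08 against 8.48, 8.61 and 9.18. No value of one group came near the other, and the difference was -2.0 ± 0.25 (adjusted p = 0.000241). C1qa, a chain of the first component of the classical pathway, read 7.48, 7.53 and 7.62 against 9.04, 8.89 and 8.92. Its difference of -1.41 ± 0.17 was matched by -1.41 ± 0.20 for C1qb and -1.34 ± 0.19 for C1qc, the other 2 chains of C1q. C5ar1, the receptor of the anaphylatoxin C5a, differed by -1.04 ± 0.16. C3ar1, the receptor of C3a, differed by -1.14 ± 0.30 and was called only with the replicate block (adjusted p = 0.066 without and 0.00248 with it).

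Among the receptors for IgG, Fcgr3, an activating receptor, read 7.13, 7.11 and 6.93 against 8.65, 8.24 and 8.37. The groups did not overlap and differed by -1.37 ± 0.15 (adjusted p = 6.4e-05). Fcgr1, the high-affinity receptor CD64 that marks macrophages, read 4.81, 5.04 and 4.95 against 6.62, 6.11 and 6.21. This gave -1.38 ± 0.20 (adjusted p = 0.000794). Fcgr4 differed by -1.51 ± 0.35, Fcgr2b, the inhibitory member, by -1.02 ± 0.14, and Fcer1g, the signalling chain shared by the activating receptors, by -0.56 ± 0.11. Activating and inhibitory receptors were thus lower together. The count for the list stayed between 8 and 10 when any one array was left out. Fcgr4 lost its call without any one array other than CD103+CD11b+ replicate 6 (adjusted p of up to 0.189). The Fcgr genes are close relatives, and probe sets of such genes can share signal.

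The called genes of the macrophage and monocyte lists were all lower in CD103+CD11b+ cells. In the macrophage list 11 of 27 genes were lower, against 1.14% of all genes tested, and 0 higher, with a median of -0.46. The count stayed between 10 and 11 without any one array. Tgfbi, an extracellular matrix protein, read 8.10, 8.85 and 8.64 against 10.10, 9.99 and 10.15. CD103+CD11b+ replicate 4 was the lowest array, and the difference was -1.55 ± 0.15 (adjusted p = 2.3e-05). Mrc1, the mannose receptor, read 8.23, 7.83 and 7.77 against 9.69, 9.17 and 9.06. The highest CD103+CD11b+ value was that of experiment 4, which was also the highest in the other subset, and the groups differed by -1.36 ± 0.20 (adjusted p = 0.00101). Apoe, an apolipoprotein, differed by -0.92 ± 0.15, the DNase Dnase1l3 by -1.32 ± 0.23 and the endosomal glycoprotein Cd68 by -0.67 ± 0.17, the last call being lost without any one of the 6 arrays (adjusted p of up to 0.202). Mertk, a receptor for apoptotic cells, read 4.05 ± 0.37 (SD, n = 3) and 4.18 ± 0.21 (SD, n = 3) and was not called (adjusted p = 0.952).

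In the monocyte list 9 of 20 genes were lower, against 1.14% of all genes tested, and 0 higher, with a median of -0.52. Lyz1, a lysozyme, read 8.83, 9.29 and 9.21 against 11.25, 10.87 and 10.71. The difference was -1.83 ± 0.25 (adjusted p = 0.000479), and its close relative Lyz2 differed by -0.66 ± 0.14. The clotting proteases F10 and F7, which myeloid cells also make, were lower. F10 read 5.54, 5.91 and 5.89 against 7.79, 7.10 and 8.20. That is -1.92 ± 0.32 (adjusted p = 0.00281), and F7, which is not on the list, differed by -1.56 ± 0.27. The endotoxin co-receptor Cd14 differed by -0.77 ± 0.12, Thbs1, thrombospondin 1, by -0.84 ± 0.18 and Hp, haptoglobin, by -1.45 ± 0.34. The monocyte count was 3 and 4 without CD103+CD11b+ replicate 4 and 5, and 5 without CD103-CD11b+ replicate 4 or 6. Thbs1 lost its call without any one array other than CD103-CD11b+ replicate 5 (adjusted p of up to 0.136), and Hp without replicate 5 of either subset, CD103+CD11b+ replicate 4 or CD103-CD11b+ replicate 6 (0.216). With the replicate block Treml4, a receptor of the Trem family, was higher (0.78 ± 0.25, adjusted p = 0.163 without and 0.0416 with the block), so that the list then had 1 gene higher. Ly6c2, a defining gene of Ly6C-high monocytes, was not analysed here.

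The promoters of F10 and Hal are shown as those of the largest called falls with an entry in the same table. F10 lies at chr8:13037058-13037357 and Hal at chr10:93488518-93488817, both on the plus strand. The capitals in Hal mark a match to the AP-1 motif TGANTCA at positions -239 to -233 from the start, counted with the start as 0. F10 holds none of the 4 motifs.
F10: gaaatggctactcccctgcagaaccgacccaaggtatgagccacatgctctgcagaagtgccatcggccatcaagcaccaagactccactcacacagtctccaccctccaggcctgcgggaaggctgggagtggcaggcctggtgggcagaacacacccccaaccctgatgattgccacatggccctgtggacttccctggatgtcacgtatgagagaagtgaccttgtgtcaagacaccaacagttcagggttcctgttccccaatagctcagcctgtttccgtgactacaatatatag
Hal: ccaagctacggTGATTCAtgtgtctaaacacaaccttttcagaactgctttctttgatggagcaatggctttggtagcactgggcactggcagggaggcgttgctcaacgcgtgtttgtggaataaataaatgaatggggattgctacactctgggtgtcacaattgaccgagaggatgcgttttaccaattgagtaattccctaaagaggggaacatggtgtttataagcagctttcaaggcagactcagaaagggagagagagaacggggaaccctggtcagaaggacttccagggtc

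Hal encodes histidine ammonia-lyase, which turns histidine into urocanate. It read 5.55, 5.18 and 5.72 in CD103+CD11b+ cells and 7.89, 6.64 and 7.66 in CD103-CD11b+ cells. The values of experiment 5 were the lowest of both subsets, and the difference was -1.91 ± 0.26 (adjusted p = 0.000479). Slc7a2, a transporter of arginine and other cationic amino acids, differed by -1.53 ± 0.20. The size is uncertain because its CD103+CD11b+ mean of 3.45 lay under the filter level. Acp5, the tartrate-resistant acid phosphatase of macrophages and osteoclasts, read 8.09, 8.67 and 8.35 against 10.22, 9.84 and 10.01, a difference of -1.65 ± 0.20 (adjusted p = 0.000192). The phospholipase Pla2g2d differed by -1.78 ± 0.25.

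Several lower genes encode secreted regulators of the epithelium and of inflammation. Il22ra2, the soluble receptor that binds and blocks interleukin 22, read 7.19, 6.24 and 6.74 against 9.02, 8.45 and 8.34. The groups did not overlap, and the difference was -1.88 ± 0.25 (adjusted p = 0.000393). Inhba, the subunit of activin A, read 7.46, 7.51 and 7.86 against 9.0, 9.55 and 9.77, a difference of -1.83 ± 0.24 (adjusted p = 0.000389). Osm, oncostatin M, a cytokine that acts on stromal cells, read 6.19, 6.13 and 6.12 against 7.51, 7.45 and 7.40. Here both groups were nearly constant, at -1.30 ± 0.23 (adjusted p = 0.00545). With Il1rn, the interleukin 1 receptor antagonist, at -0.60 ± 0.14, these were the 4 lower genes of 28 cytokine genes tested. None of the 28 was higher, and 1.14% of all genes tested were lower. Il1b differed by -0.18 ± 0.14 (adjusted p = 0.819), Il6 by 0.30 ± 0.31 (adjusted p = 0.897) and Il10 by -0.86 ± 0.37 (adjusted p = 0.444), none of them called. The Il1rn call was lost without any one array other than CD103+CD11b+ replicate 4 (adjusted p of up to 0.146).

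Of 24 chemokine genes 4 were lower, against 1.14% of all genes tested, and 0 higher. Ccl24, an eotaxin, read 4.94, 5.11 and 5.32 against 6.74, 6.67 and 7.56, a difference of -1.86 ± 0.39 (adjusted p = 0.0161). Ccl9 differed by -1.24 ± 0.24, Ccl6 by -1.04 ± 0.20 and Cxcl14 by -1.0 ± 0.22. The neutrophil attractant Cxcl2 differed by -0.40 ± 0.14 (adjusted p = 0.243), Ccl3 by -0.55 ± 0.26 (adjusted p = 0.512) and Ccl22, a product of mature dendritic cells, by 0.32 ± 0.15 (adjusted p = 0.497). The count was 0 without CD103+CD11b+ replicate 4 and 1 without CD103-CD11b+ replicate 6. Ccl24 was also lost without CD103+CD11b+ replicate 5 (adjusted p of up to 0.108) and Cxcl14 without CD103-CD11b+ replicate 4 or 5 (0.142).

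Tissue repair and matrix genes had 5 of 26 lower, against 1.14% of all genes tested, and 0 higher, with a median of -0.39. Mmp14, a membrane-bound metalloproteinase, read 7.67, 7.97 and 7.59 against 8.99, 8.69 and 8.94. The groups did not overlap, at -1.13 ± 0.21 (adjusted p = 0.00612). The collagenase Mmp13 differed by -1.58 ± 0.38 and the growth factor Pdgfa by -0.80 ± 0.16. Mmp12, macrophage elastase, differed by -0.55 ± 0.18 (adjusted p = 0.188), Vegfa by -0.41 ± 0.12 (adjusted p = 0.118) and Ptgs2, the inducible cyclooxygenase, by -0.19 ± 0.14 (adjusted p = 0.814). The count was 3 or 2 without any one array other than CD103-CD11b+ replicate 5. Mmp13 lost its call without each of the 6 arrays in turn (adjusted p of up to 0.19), and Pdgfa without replicate 6 of either subset, CD103+CD11b+ replicate 5 or CD103-CD11b+ replicate 4 (0.0709).

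Pattern recognition receptors had 8 of 24 lower, against 1.14% of all genes tested, and 0 higher, with a median of -0.30. Tlr4, the endotoxin receptor, read 5.83, 5.84 and 5.99 against 7.51, 7.10 and 7.11, a difference of -1.35 ± 0.21 (adjusted p = 0.00162). Tlr8, an endosomal receptor, read 2.81, 3.32 and 3.15 against 5.02, 4.23 and 4.26. Because its CD103+CD11b+ mean of 3.09 lay under the filter level, the size of its difference of -1.41 ± 0.21 is uncertain. Tlr7 differed by -0.98 ± 0.24, Tlr2 by -0.80 ± 0.16, the lectin Clec4e (Mincle) by -1.40 ± 0.29 and Clec4a2 by -0.90 ± 0.19. The CD103+CD11b+ mean of Tlr7, 3.78, lay near the filter level, so the size of its difference is uncertain too. Clec7a, the beta-glucan receptor Dectin-1, differed by -0.31 ± 0.21 (adjusted p = 0.761). The count was 3 to 5 without any one array other than CD103-CD11b+ replicate 5. Tlr7 was lost without any one array other than CD103-CD11b+ replicate 6 (adjusted p of up to 0.262), Clec4a2 without any other than CD103-CD11b+ replicate 5 (0.11) and Clec4e without CD103+CD11b+ replicate 4 or CD103-CD11b+ replicate 6 (0.122).

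In the lysosome list 8 of 27 genes were lower, against 1.14% of all genes tested, and 0 higher, with a median of -0.47. Lamp1, a membrane protein of lysosomes, read 9.44, 9.49 and 9.62 against 10.27, 10.06 and 10.32, a difference of -0.70 ± 0.12 (adjusted p = 0.00369). The transcription factor Tfec differed by -1.52 ± 0.27, the cholesterol carrier Npc2 by -0.72 ± 0.12 and the proteases Ctsl and Ctsd by -0.98 ± 0.22 and -0.78 ± 0.18. Ctsb differed by -0.64 ± 0.18 and was called only with the replicate block (adjusted p = 0.0989 without and 0.0338 with it). Without CD103+CD11b+ replicate 4 or 6, or CD103-CD11b+ replicate 4, the count was 5, and Ctsl was lost without any one array other than CD103+CD11b+ replicate 5 (adjusted p of up to 0.169) and Ctsd without any other than CD103-CD11b+ replicate 6 (0.159).

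In the scavenging and efferocytosis list 5 of 23 were lower, against 1.14% of all genes tested, and 0 higher, with a median of -0.47. Axl, a receptor for apoptotic cells, read 6.60, 6.61 and 6.68 against 7.75, 7.24 and 8.10, a difference of -1.07 ± 0.19 (adjusted p = 0.00453). The scavenger receptor Msr1 differed by -1.10 ± 0.25, whereas Cd36 differed by -0.10 ± 0.20 (adjusted p = 0.965). The count was 3 without any one array, and Msr1 was lost each time (adjusted p of up to 0.136). Of 20 lipid and sterol genes 4 were lower and 0 higher, with a median of -0.16 and a range of -1.53 to 0.50. Abca1, which exports cholesterol, read 7.27, 7.12 and 7.05 against 8.93, 8.39 and 8.70, a difference of -1.53 ± 0.21 (adjusted p = 0.000523). Plin2, the coat of lipid droplets, differed by -1.13 ± 0.19. Fabp5 differed by -0.62 ± 0.15 on 1 probe set and by -0.02 ± 0.31 on the other, and its call was lost without any one array other than CD103+CD11b+ replicate 4 (adjusted p of up to 0.252). It was also lost under 6 other alternatives, among them the fit on only these groups, both other scalings and the mean of the probe sets (up to 0.709).

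Among cDC2 genes 5 of 21 were lower in CD103+CD11b+ cells, against 1.14% of all genes tested, and 0 higher, with a median of -0.38. Sirpa, the receptor of CD47, read 8.51, 8.37 and 8.23 against 9.06, 8.88 and 9.15, a difference of -0.66 ± 0.14 (adjusted p = 0.0216). The transcription factor Zeb2 differed by -0.96 ± 0.17, the membrane proteins Tmem176a and Tmem176b by -1.03 ± 0.16 and -0.94 ± 0.19, and Cd4 by -1.19 ± 0.28. Irf4, on which cDC2 depend, differed by -0.07 ± 0.16 (adjusted p = 0.969) and Cd209a by -0.38 ± 0.24 (adjusted p = 0.736). All 5 called genes are also known from monocytes or macrophages, as is Itgam of the same list, which was not called. Whether such cells account for the calls was not tested. The count was 3 or 2 without any one array other than CD103-CD11b+ replicate 5. Sirpa was lost without replicate 6 of either subset, CD103+CD11b+ replicate 5 or CD103-CD11b+ replicate 4 (adjusted p of up to 0.114), Tmem176b without replicate 4 of either subset or CD103-CD11b+ replicate 6 (0.0913), and Cd4 without each array in turn (0.186).

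**Figure D3:**
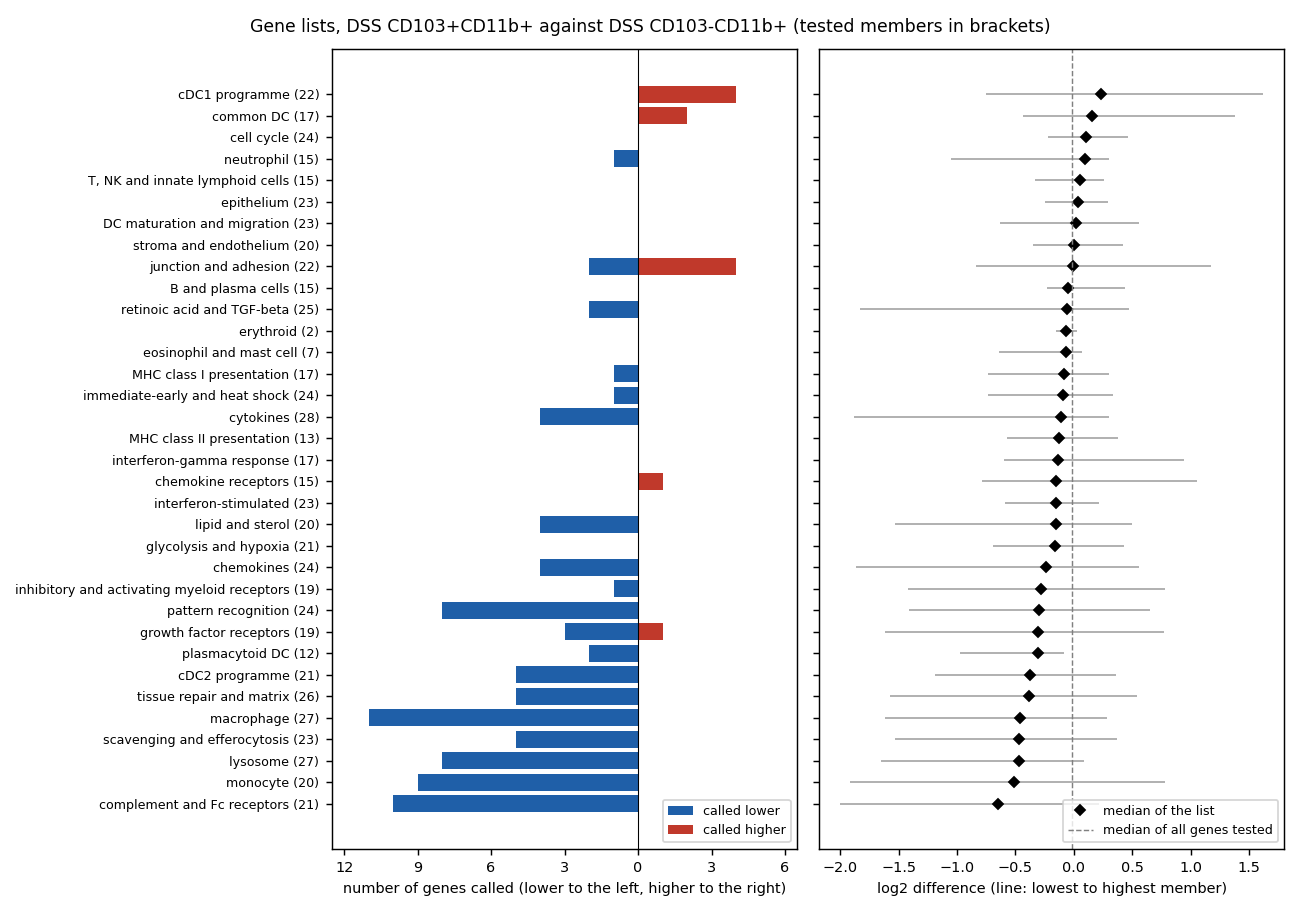
Number of called genes in each of 34 lists (left, lower to the left and higher to the right, with genes tested in brackets) and the median log2 difference of each list as a diamond with a line from its lowest to its highest member (right), for DSS CD103+CD11b+ against DSS CD103-CD11b+ cells. Complement and Fc receptors (10 of 21 lower) and macrophage genes (11 of 27 lower) hold the most calls, and the cDC1 list (4 of 22 higher) has the highest median.

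Other lists held few calls. Retinoic acid and TGF-beta genes had 2 of 25 lower, Inhba and Thbs1, and 1 without any one array other than CD103-CD11b+ replicate 5. The retinoic acid producing enzyme Aldh1a2 read 4.89 ± 0.18 (SD, n = 3) and 4.85 ± 0.15 (SD, n = 3) and was not called (adjusted p = 0.996). The single call among 17 genes of MHC class I presentation was Cybb, the NADPH oxidase subunit, at -0.74 ± 0.16. Immediate-early and heat shock genes had 1 of 24 lower, Ier3 at -0.57 ± 0.14, while Fos differed by -0.29 ± 0.13 (adjusted p = 0.467) and Jun by -0.04 ± 0.14 (adjusted p = 0.985). The inhibitory and activating myeloid receptors had 1 of 19 lower, Lilra5 at -1.42 ± 0.31. The Cybb call was lost without any one array other than CD103+CD11b+ replicate 6 (adjusted p of up to 0.14), that of Ier3 without each array in turn (0.155) and that of Lilra5 without replicate 4 of either subset, CD103+CD11b+ replicate 5 or CD103-CD11b+ replicate 6 (0.13). No gene was called among 13 MHC class II, 23 interferon-stimulated, 17 interferon-gamma response, 23 dendritic cell maturation, 24 cell cycle and 21 glycolysis and hypoxia genes. As 1.58% of all genes tested were called, the lack of calls in lists of this size is near that share. With the replicate block 1 gene each was called of the interferon-gamma response (Ido1, 0.95 ± 0.27, adjusted p = 0.0216), the interferon-stimulated genes (Rsad2, -0.58 ± 0.24, adjusted p = 0.0411) and glycolysis (Hk3, -0.69 ± 0.18, adjusted p = 0.0369). Other alternatives gave up to 2 lower genes of MHC class II presentation and up to 2 of glycolysis, and 1 higher gene of dendritic cell maturation.

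Gp2 had the largest difference of all genes tested and was called only with the pairing. It encodes a glycoprotein of pancreatic secretory granules that is also a receptor for bacteria on epithelial M cells. It read 6.74, 6.80 and 8.03 in CD103+CD11b+ cells and 4.90, 4.82 and 4.99 in CD103-CD11b+ cells. All 3 values were higher in CD103+CD11b+ cells, but the difference of 2.29 ± 0.65, larger than that of any called gene, was not called (adjusted p = 0.099). With the replicate block it was 2.29 ± 0.26 (adjusted p = 0.000192). Of the 16 pancreatic enzyme genes 4 were also called with the block. The Gp2 difference was 1.84, 1.98 and 3.04 in experiments 4, 5 and 6, and the part of the pancreatic transcripts in it was not tested. Gp2 was singled out after its values were seen.

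Markers of other cell types that a sort can carry were compared as well. B and plasma cell genes had 0 of 15 called, and the mean of the list was 6.28 to 6.39 over the CD103+CD11b+ arrays and 6.25 to 6.44 over the CD103-CD11b+ arrays. T, NK and innate lymphoid cells (0 of 15), epithelium (0 of 23), stroma and endothelium (0 of 20), eosinophils and mast cells (0 of 7) and the erythroid list (0 of 2) also gave no call. Over all genes tested 1.58% were called, so the lack of calls in such short lists says little about these cell types. Neutrophil genes gave 1 of 15, Csf3r, and their mean was 5.24 to 5.71 against 5.33 to 5.76, and S100a8 and S100a9, the abundant neutrophil calgranulins, differed by 0.29 ± 0.52 and 0.10 ± 0.51 (adjusted p = 0.96 and 0.996). Plasmacytoid dendritic cell genes gave 2 of 12 lower, Tlr7 and Cd209d, and the mean of the list was 5.43 to 5.66 against 5.91 to 5.99. Cd209d was lost without each array in turn (adjusted p of up to 0.153). Tlr7 was lost without any one array other than CD103-CD11b+ replicate 6 (0.262), and the count fell to as low as 0 among the alternatives. The defining Siglech differed by -0.40 ± 0.29 (adjusted p = 0.799). The list means that did not overlap between the subsets included macrophage (7.19 to 7.24 against 7.77 to 8.08) and monocyte (7.41 to 7.62 against 8.08 to 8.16). Such gaps were common and not particular to cell type lists. They were also seen in lists without a call, MHC class II presentation (8.42 to 8.54 against 8.60 to 8.64) and glycolysis and hypoxia (7.59 to 7.80 against 7.83 to 7.94). How far cells of these types in the sort account for the differences was not tested.

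**Figure D4:**
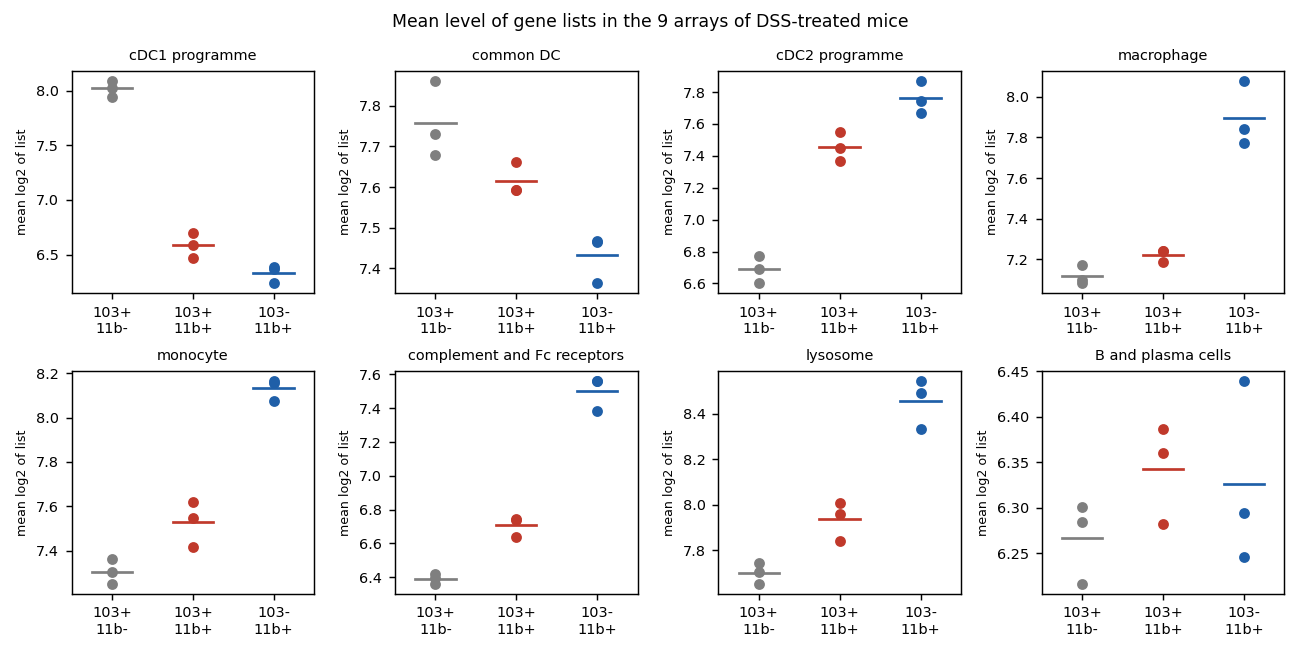
Mean log2 level of 8 gene lists (vertical, a separate scale in each panel) in each of the 9 arrays of DSS mice, as points, with bars for the means of 3 arrays, for CD103+CD11b- (grey), CD103+CD11b+ (red) and CD103-CD11b+ (blue) cells. Red points lie between the other subsets in the first 7 panels and overlap the blue points for B and plasma cells.

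Ighg3, the constant region of an IgG heavy chain, had the largest called fall. It read 2.27, 2.47 and 2.16 in CD103+CD11b+ cells and 5.34, 3.63 and 4.22 in CD103-CD11b+ cells. All 3 CD103+CD11b+ values lay under the filter level, so the size of the difference, -2.10 ± 0.42 (adjusted p = 0.0124), is uncertain. Among the arrays of DSS mice, only the 3 CD103-CD11b+ arrays exceeded that level. Ighg3 may thus have passed the filter only through the subset where it was high, and its call and rank are given as a description. Other plasma cell genes were not called: Igha differed by 0.00 ± 0.29 (adjusted p = 1), Ighm by -0.12 ± 0.20 (adjusted p = 0.959) and Jchain by -0.14 ± 0.20 (adjusted p = 0.95). The Ighg3 call was lost without CD103+CD11b+ replicate 4 or 6 or CD103-CD11b+ replicate 4 (adjusted p of up to 0.0817).

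Promoter sequence was searched for 4 motifs on both strands: GAANNGAAA of the interferon regulatory factor type, TGANTCA (AP-1), GAGGAAGT (PU.1, a factor of myeloid cells) and CACGTG (E-box). The RefSeq table held a promoter for 55 of the 61 higher genes, 119 of the 160 lower genes and 11055 of all genes tested. The PU.1 motif was found in 9.09% of the higher, 6.72% of the lower and 2.98% of all tested genes with a promoter. The AP-1 motif was found in 3.64%, 11.8% and 5.55% of them, the interferon regulatory factor motif in 5.45%, 7.56% and 5.97%, and the E-box in 10.9%, 10.9% and 9.74%. In all 27025 promoters of the table the shares were 3.25% for PU.1 and 7.92% for AP-1. These shares were not tested, and a match is a run of letters and not a site of binding. The PU.1 matches of 2 higher genes, Fgd3 and Gpr55, and of 2 lower genes, C1qc and Fcgr4, are shown with 15 bases on either side, chosen after their values were seen. The strand printed is that of the gene, and the capitals mark the motif or its reverse complement. Fgd3 lies at chr13:49309227-49309264 and Gpr55 at chr1:85961138-85961175, both on the minus strand. C1qc lies at chr4:136893087-136893124 on the minus strand and Fcgr4 at chr1:171018887-171018924 on the plus strand.
Fgd3: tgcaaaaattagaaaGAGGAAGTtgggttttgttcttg
Gpr55: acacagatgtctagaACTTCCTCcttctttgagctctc
C1qc: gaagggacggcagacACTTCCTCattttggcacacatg
Fcgr4: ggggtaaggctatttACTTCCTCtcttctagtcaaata

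The same 2 subsets of untreated mice, on other arrays, gave a second measurement of these genes. Both comparisons used 1 spread estimate per gene from all 18 arrays, so the calls of the 2 are not independent. There 575 genes were called (4.11%), 330 higher (2.36%) and 245 lower (1.75%). The balance of the 2 directions depended on the scaling, with 225 higher and 327 lower after a second quantile normalization and 244 higher and 291 lower after centring each array on its median. The call count was 150 in a fit on only these groups, 341 and 349 without CD103+CD11b+ replicate 1 and 2, and 315 without CD103-CD11b+ replicate 2. Of the 61 genes higher after DSS, 60 had the same sign in untreated mice and 44 (72.1%) were called in that direction. Of the 160 lower genes 158 had the same sign and 113 (70.6%) were called. Among all genes tested that were higher or lower by any amount after DSS, 72.1% and 47.5% had the same sign in untreated mice, and 4.47% and 3.25% were called in that direction. The 157 genes called both times were 71.0% of the DSS calls and 27.3% of the untreated calls. Csf1r differed by -1.62 after DSS and -1.54 in untreated mice, Fcgr3 by -1.37 and -1.39, Ccr6 by 1.05 and 1.05 and Rtn1 by 1.38 and 1.44. Itgae differed by 1.62 after DSS and 2.49 in untreated mice, and C1qa by -1.41 and -1.88.

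Some leading genes were called after DSS and not in untreated mice. Map9 differed by 1.13 after DSS and 0.12 ± 0.22 in untreated mice. Hp differed by -1.45 and 0.02 ± 0.34 and Slc7a2 by -1.53 and -0.41 ± 0.20, each with 1 untreated mean just under the filter level. Both untreated means of Crisp3 (3.11 and 2.41) and of Ighg3 (2.54 and 2.55) lay under that level, so no untreated difference is read from them. The test of these differences between conditions called none of them. The interaction called 0 of 14003 genes in limma, with 778 genes at an unadjusted p under 0.05 and a lowest adjusted p of 0.644. The lowest p was that of Cdc26, a subunit of the anaphase-promoting complex, at -1.41, the interaction being the DSS difference minus the untreated difference. The interaction of Itgae was -0.87 (adjusted p = 0.644). The alternatives run gave 0 calls too, except without DSS CD103-CD11b+ replicate 6, where Sst, somatostatin, was called at -2.34 ± 0.32 (adjusted p = 0.0142).

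**Figure D5:**
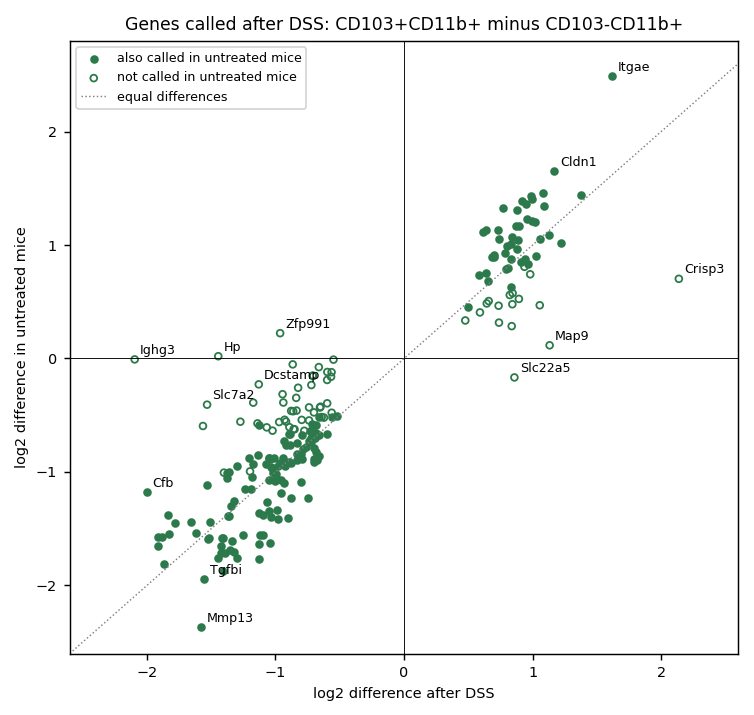
Log2 difference between CD103+CD11b+ and CD103-CD11b+ cells after DSS (horizontal) against that in untreated mice (vertical) for the 221 genes called after DSS, filled where also called in untreated mice, with a dotted line of equal differences. In 218 genes the signs agree. Crisp3, Ighg3, Hp and Map9 lie far from the line, and the vertical positions of Crisp3 and Ighg3 come from means under the filter level.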

How the data were processed

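Expression was measured on 18 Affymetrix arrays, 3 for each of 3 sorted subsets in untreated and in DSS-treated mice, from RNA amplified from 5 ng. The deposited values are log2 expression per probe set, made by the authors with RMA, per the submitters' processing notes. Values ran from 1.07 to 13.16, and array medians from 3.99 to 4.09.

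Of 34760 probe sets, 21640 had a single gene symbol, 1321 had several and 11799 had none, and 21553 of the first matched the RefSeq gene table (GRCm38.p6, names only). For each of 19937 genes the probe set of highest mean was kept, and 14003 genes exceeded 3.51, the 40th percentile, in at least 3 arrays. limma 3.58.1 in R 4.3.3 fitted a mean per group to all 18 arrays with empirical Bayes moderation, which was tested on simulated data. Benjamini-Hochberg adjustment covered all genes tested, at a threshold of 0.05.

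The experiment number in the titles pairs the arrays of an experiment. Deviations from the group means of same-numbered arrays of these 2 subsets correlated at 0.158, 0.184 and 0.311 in DSS mice, against -0.189 to 0.022 for other numbers, and at -0.025, 0.287 and 0.292 in untreated mice.

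Named genes are the sort markers, the 15 largest called differences in each direction among separated genes, and for each of 34 lists its defining members and up to 5 called members. C1qc, C3ar1, C5ar1, Cd14, Dnase1l3, Fcer1g, Fcgr2b, Gp2, Gpr55, Hk3, Ido1, Igha, Ighm, Itga4, Jchain, Lyz2, Rsad2, Sst, Tlr2 and Treml4, and the genes of the closing section, were named after their values were seen. The comparison and the lists were chosen with earlier results of these data known. Of 688 listed genes 606 were tested, and 63 had no probe set with a single symbol. Lists share members. Signal of close relatives (Lyz1 and Lyz2, the Fcgr genes, Serpinb1b) is uncertain.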

Additional observations from a re-analysis of the deposited data

How the results depend on the processing

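For the subsets of DSS mice, the 221 calls ranged from 97 to 203 when one array was left out, the 61 higher genes from 16 to 47 and the 160 lower genes from 81 to 156. The lowest values came without CD103-CD11b+ replicate 6. With the replicate block the higher genes increased to 94, among 305 calls, and no gene of the 34 lists that had been called lost its call. With array weights there were 366 calls, 108 higher and 258 lower. The other alternatives (only these groups in the fit, with and without the block, quantile normalization, centred arrays, no filter, a stricter filter, the mean of probe sets and a mean-variance trend) gave 206 to 246 calls. No gene called under both the reported and another setting had opposite signs. For the subsets of untreated mice, the 575 calls (330 higher, 245 lower) became 150 (69 and 81) with only these groups, 172 (80 and 92) with only these groups and the replicate block, and 367 (206 and 161) with array weights. Leaving out one array gave 315 to 571 calls, 174 to 330 of them higher and 141 to 255 lower. The replicate block gave 697 calls, and the split of 330 higher and 245 lower became 225 and 327 with quantile normalization and 244 and 291 with centred arrays. The interaction gave 0 to 1 calls. Of the 79 named genes that were called, 39 kept their call without each of the 6 arrays, and 40 lost it without at least one. Under the other alternatives 15 of the 79 lost their call: F7, Hp, Serpinb1b and Spata32 with only these groups, Il1rn and Fabp5 there and with centred arrays, Ier3, Sirpa, Wdfy4 and Tlr7 with only these groups and the block, Cd68 and Gm5150 with centred arrays, and Cd4, Cd209d and Mmp13 without the filter. Some were lost under further alternatives too, Tlr7 with quantile normalization, with centred arrays and without the filter. Precision is limited by 3 arrays a group, and levels near or under 3.51 leave the size of a difference uncertain. The causes of these changes were not tested.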

Other observations

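Some called genes outside the gene lists, named after their values were seen, encode secreted or surface proteins with known roles. Egf, epidermal growth factor, was higher in CD103+CD11b+ cells of DSS mice by 0.89 ± 0.22 (adjusted p = 0.0475). Slamf1, a receptor of lymphocytes and myeloid cells, was higher by 0.80, the actin-severing protein Scin by 0.99 and the lectin-like receptor gene Klri1 by 0.94. Genes lower in CD103+CD11b+ cells included Ada, adenosine deaminase, at -1.45, the phospholipase D family member Pld3 at -1.53, the integrin chain Itga9 at -1.42 and Lgals3bp, a galectin-binding protein, at -1.38. Nrg1, a ligand of ErbB receptors, differed by -0.92 and the placental growth factor gene Pgf by -1.02.

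The genes of cell fusion Dcstamp and Ocstamp, which osteoclasts and macrophage giant cells use, differed by -1.13 and -0.99, beside Acp5 at -1.65. In untreated mice Dcstamp differed by -0.23. Slc22a5, a carnitine transporter, differed by 0.86 after DSS and -0.17 in untreated mice, Gpr35 by -0.87 and -0.05 and Zfp991 by -0.96 and 0.22. The Zfp991 mean in CD103+CD11b+ cells after DSS (3.31) lay under the filter level, so the size of its difference is uncertain. The interaction called none of these genes.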
